A study of Bos taurus with 16 samples.

Results

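The genes described here are 10 genes that make, sense and break down prostaglandins and leukotrienes: PTGS1, PTGS2, PTGES, PTGDS, PTGER2, PTGER4, HPGD, ALOX5, ALOX5AP and LTA4H. They were chosen by name, with earlier results of these data known. A probe was taken where its gene name, or the symbol in brackets at the end of its description, was one of the 10, which gave 1 probe for each gene and 10 probes of the 21475 on the array. All 10 are reported, and 9 of them passed the filter on dim probes that left 16653 probes for testing.

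Bovine whole-genome Agilent arrays were hybridised with RNA of CD14+ cells, the cells that carry the lipopolysaccharide co-receptor of monocytes and macrophages. The endometrial CD14+ cells came from the interplacentomal endometrium of 4 pregnant cows and the blood CD14+ cells from the blood of the same 4 cows, at days 164, 239, 242 and 248 of pregnancy (animals 1 to 4). Each array carried both tissues of 1 animal in the dyes Cy3 and Cy5, and each animal had 2 arrays, so that 16 samples, 8 per tissue, came from 8 arrays. The dyes were exchanged between the arrays in 3 animals and not in animal 3, so that a dye effect does not cancel there. No nonpregnant cow was included, and all animals were collected at an abattoir. The labels state a purity by flow cytometry of 90 to 95% for endometrial and 98 to 99% for blood CD14+ cells, which is set beside the marker genes below, and the small amounts of RNA were amplified before labelling.

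Prostaglandins and leukotrienes are made from arachidonic acid, which phospholipases A2 release from membranes. The cyclooxygenases PTGS1 and PTGS2 convert it to prostaglandin H2, terminal synthases turn this into the individual prostaglandins, and 15-hydroxyprostaglandin dehydrogenase, encoded by HPGD, inactivates them. In the other branch, 5-lipoxygenase with its activating protein makes leukotriene A4, and LTA4H converts that to leukotriene B4. In the bovine uterus, prostaglandin F2 alpha and prostaglandin E2 are known for their parts in luteolysis, the maintenance of pregnancy and parturition.

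The probes are what stands behind every level below, so a stretch of 30 bases of 6 of them is shown, 5′ to 3′ as the scanner files list them. HPGD, PTGS1, PTGS2 and ALOX5AP are given by their first 30 bases, because the first 3 had the largest differences between the tissues and the last gave no measurable signal. PTGES and PTGDS are given by the stretch that holds AATAAA, the usual polyadenylation signal, in capitals.
HPGD: taatgctcaaagctgtagcttaagctttta
PTGS1: cagagctctgtcctcatccaggtctcaact
PTGS2: tgttaaatatctgaatgactgaatctggga
ALOX5AP: acactgctaaaattgtcacaagaagcaaag
PTGES: atccagggatgtAATAAAtgaggacttctc
PTGDS: tcccgctctgaaAATAAActctgaagcaag
AATAAA occurred on the listed strand in 2 of the 10 probes and in 11.8% of all probes with a sequence, and on the other strand in 1 of the 10 (PTGDS) and in 3.88% of all probes. Each of the 10 probes is 60 bases long, with a G and C content between 35% (PTGS2) and 60% (ALOX5). Over all probes the median was 43.3%, and the 5th and 95th percentiles were 35 and 58.3%.

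Values are normalised intensities on the log2 scale, averaged over the spots of a probe, and a log2 ratio is the endometrial minus the blood value within an animal. To be tested, a probe had to exceed background clearly, by the scanner's flag, in 4 or more of a tissue's 8 channels, and it was called where limma's adjusted p was at most 0.05 and the fold change was over 2. This flag was set for 65.2 to 82.9% of spots, depending on the channel. The level of 1 probe cannot be set against that of another probe, and in sorted cells as in whole tissue, fewer cells of a type and less RNA per cell cannot be told apart. The scanner files listed for the samples did not carry the tissues as labelled: each column of the value table equalled the labelled dye of the file of the other technical replicate, and reading the files as listed exchanged the tissues in 3 of the 4 animals. Directions follow the value table, in which 21, 21, 22 and 23 of 24 trophoblast and epithelium probes were higher in endometrium in animals 1 to 4, against 5, 3, 22 and 0 with the files as listed.

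By monocyte, macrophage and lymphocyte markers, the labelled cell type was borne out in the blood of animal 1 and not in the blood of the other 3 animals. CD14, the antigen of the sort, was at 16.12 in the blood library of animal 1 and at 5.76, 8.85 and 6.94 in those of animals 2, 3 and 4, and in endometrium at 14.04, 6.07, 9.5 and 7.38. All 11 monocyte and macrophage probes were highest in animal 1 among the blood libraries, with a median level of 14.73 against 6.67, 8.85 and 7.69 in animals 2 to 4. All 14 probes of T and natural killer cells were lowest there, with a median of 5.80 against 13.16, 11.80 and 12.64, and 5 of 6 B cell probes were lowest there too. In endometrium, 10 of the 11 monocyte and macrophage probes were highest and 13 of the 14 T and natural killer cell probes lowest in animal 1. These marker levels go against the stated purity of the libraries of animals 2 to 4, above all those from blood, and "blood" and "endometrium" below mean the libraries labelled as CD14+ cells of that tissue. Animal 1 was also the highest in stromal markers. In endometrium it was highest for 13 of 13 stromal probes, with a median level of 14.17 against 5.78, 9.07 and 8.16 in animals 2 to 4. In blood it was highest for 12 of 13, with a median of 8.56 against 4.74, 5.79 and 5.48. The stromal levels go against the stated purity of the endometrial library of animal 1 too. That library also had median levels of 11.91 for trophoblast and 11.32 for epithelial probes, within the range of the other animals. The part of T cell, B cell and stromal RNA in the members' ratios was not tested. Of the 9 members tested, 8 had the same sign in animal 1 alone as in the mean, with PTGES as the exception, and 8 kept it without animal 1, with PTGER2 as the exception.

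HPGD passed the test and was 25.3-fold higher in endometrium than in blood, or at least 18.8-fold with animal 2 at a bound, since its blood signal was not well above background. It was the 1 member called of the 9 tested, beside 1.35% of all probes tested. PTGS1 and PTGS2 had mean log2 ratios of opposite sign, 3.12 and -3.08, and neither passed the adjusted test. In 5 of the 9 members the ratio had the same direction in all 4 animals, beside 25% of all probes tested. HPGD and PTGS1 were higher in endometrium in each animal (9.82% of all probes), and PTGS2, PTGER4 and LTA4H were higher in blood in each (15.2%). These 5 also had an unadjusted p of at most 0.05 with a fold change over 2, beside 16% of all probes (7.98% higher in endometrium and 8.05% higher in blood). In all 10 genes the range of the 4 animals in one tissue overlapped that in the other, while 6.06% of all probes had ranges that did not overlap. The median log2 ratio of the 9 members was 1.09, and that of all probes tested was -0.14.

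**Figure D1:**
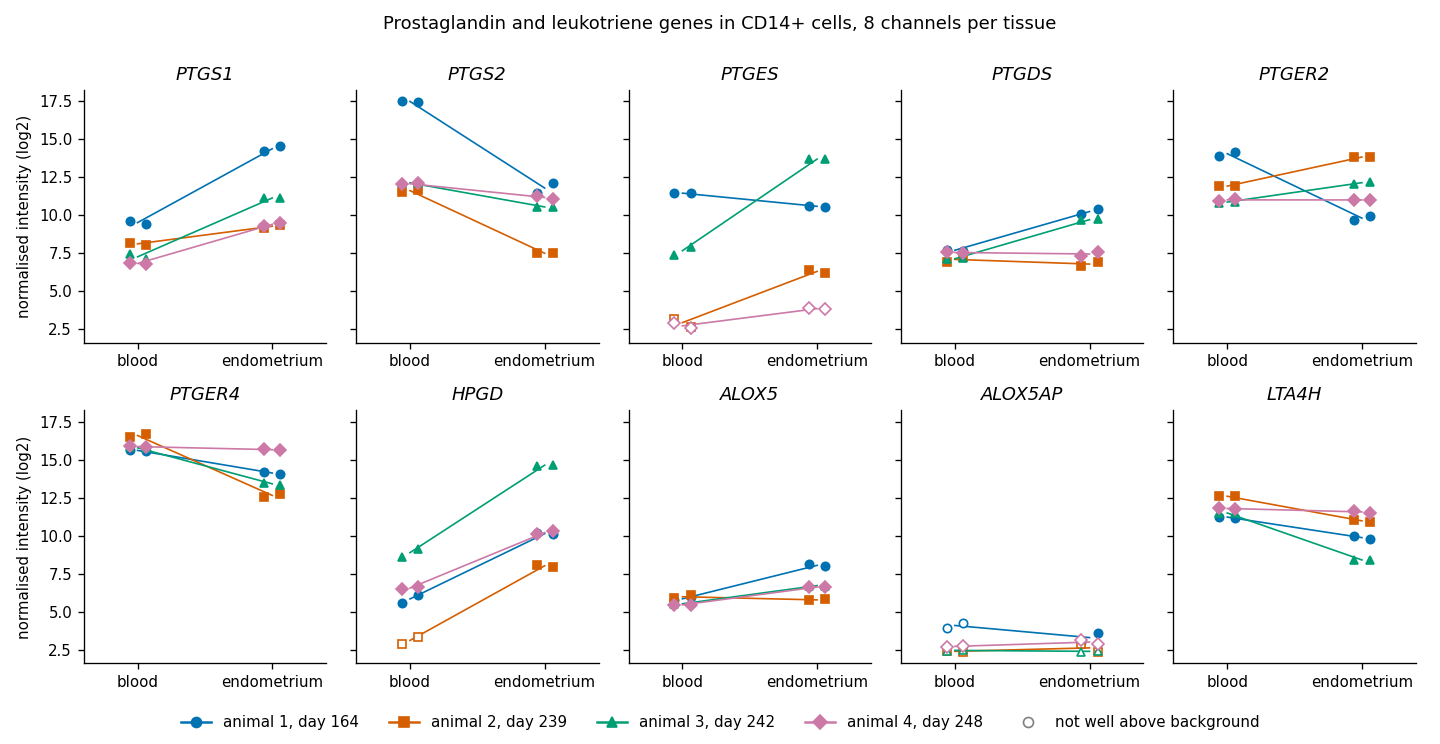
Normalised intensity (log2, y axis) of the 10 genes in blood and endometrium (x axis). Each point is 1 channel, lines join the animal means of the tissues, and open points were not well above background. HPGD and PTGS1 slope upward in all 4 animals, PTGS2, PTGER4 and LTA4H slope downward in all 4, and ALOX5AP stays near the bottom of the scale in both tissues.

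The cyclooxygenases had ratios of opposite direction. PTGS1 is the form that most tissues and platelets carry without stimulation. In blood its log2 values on the 2 arrays were 9.62 and 9.38 in animal 1, 8.17 and 8.04 in animal 2, 7.40 and 7.10 in animal 3, and 6.84 and 6.78 in animal 4. In endometrium they were 14.22 and 14.52 in animal 1, 9.16 and 9.38 in animal 2, 11.12 and 11.13 in animal 3, and 9.30 and 9.48 in animal 4. Animal 1 was the highest in both tissues, and its blood level exceeded the endometrial level of animals 2 and 4. The log2 ratios were 4.87, 1.16, 3.88 and 2.58 in animals 1 to 4, with a mean of 3.12 ± 0.68 (SE, n = 4) and an 8.69-fold difference. The 95% interval of the log2 ratio ran from 1.51 to 4.73, and it did not pass the test (limma's adjusted p = 0.112).

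PTGS2 is the cyclooxygenase that inflammatory stimuli induce. In blood its log2 values were 17.50 and 17.47 in animal 1, 11.55 and 11.67 in animal 2, 12.13 and 12.12 in animal 3, and 12.03 and 12.10 in animal 4. In endometrium they were 11.47 and 12.09 in animal 1, 7.47 and 7.50 in animal 2, 10.56 and 10.51 in animal 3, and 11.26 and 11.06 in animal 4. The blood sample of animal 1 stood far above the other 3, and the endometrial sample of animal 2 was the lowest of all. The log2 ratios were -5.71, -4.13, -1.59 and -0.91 in animals 1 to 4, with a mean of -3.08 ± 0.85 (SE, n = 4) and an 8.47-fold difference. The 95% interval of the log2 ratio ran from -5.09 to -1.08, and it did not pass the test (limma's adjusted p = 0.185). Without animal 1 the mean log2 ratio was -2.21. CD14 and the other monocyte and macrophage probes, 11 in all, were also highest in the blood of animal 1. So were 5 of 7 neutrophil probes and 12 of 13 stromal probes. Whether any of these levels is related to that of PTGS2 was not tested.

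Terminal synthases followed no common direction over the animals. PTGES, the microsomal synthase that turns prostaglandin H2 into prostaglandin E2, differed more between animals than between tissues. Its blood levels, as means of the 2 arrays, were 11.44, 2.92, 7.65 and 2.70 in animals 1 to 4, and its endometrial levels were 10.58, 6.29, 13.69 and 3.84. In animal 4 it was not well above background in either tissue, and in animal 2 not in blood. The log2 ratios were -0.87, 3.37 (at least 1.47 by the bound on its blood signal), 6.04 and 1.13, and their mean of 2.42 ± 1.06 (SE, n = 4) did not pass the test (limma's adjusted p = 0.323).

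PTGDS, which makes prostaglandin D2, was measured well above background in all 16 channels. Its blood levels lay close together, at 7.68, 7.08, 7.12 and 7.54 in animals 1 to 4. Its endometrial levels were 10.23, 6.77, 9.70 and 7.44. Animals 1 and 3 had log2 ratios of 2.55 and 2.58, and animals 2 and 4 had ratios of -0.31 and -0.10. The mean was 1.18 ± 0.68 (SE, n = 4; limma's adjusted p = 0.431).

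The 2 receptors of prostaglandin E2 among the members raise cyclic AMP when bound. PTGER2 had blood levels of 14.04, 11.91, 10.86 and 11 in animals 1 to 4 and endometrial levels of 9.80, 13.82, 12.13 and 11. Animal 1, the earliest in pregnancy, had a log2 ratio of -4.24, whereas animals 2 and 3 had 1.92 and 1.28 and animal 4 had -0.00. The mean was -0.26 ± 1.00 (SE, n = 4; limma's adjusted p = 0.927), with a 95% interval from -2.64 to 2.11. Without animal 1 the mean log2 ratio was 1.06 (limma's adjusted p = 0.512), so that its sign rested on that animal. Neither stage of pregnancy nor the cell content of its libraries, whose marker levels stood apart as given above, can be told apart from the animal.

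PTGER4 varied less between animals in blood (SD 0.43) than in endometrium (SD 1.28). The blood levels were 15.63, 16.61, 15.80 and 15.88 in animals 1 to 4. The endometrial levels were 14.14, 12.66, 13.43 and 15.68. In each animal the blood level was the higher one, and the endometrial level of animal 4 was just above the blood level of animal 1. The log2 ratios of -1.49, -3.95, -2.38 and -0.20 had a mean of -2.0 ± 0.67 (SE, n = 4), which did not pass the test (limma's adjusted p = 0.237).

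HPGD, the enzyme that oxidises prostaglandins to their inactive 15-keto forms, was the 1 member called. A missed call does not show that a member was unchanged. In blood its log2 values were 5.58 and 6.11 in animal 1, 2.89 and 3.33 in animal 2, 8.64 and 9.15 in animal 3, and 6.50 and 6.61 in animal 4. In endometrium they were 10.16 and 10.12 in animal 1, 8.09 and 7.97 in animal 2, 14.63 and 14.68 in animal 3, and 10.11 and 10.32 in animal 4. Animal 3 was the highest and animal 2 the lowest in both tissues, and the blood level of animal 3 exceeded the endometrial level of animal 2. The log2 ratios were 4.30, 4.92, 5.76 and 3.65 in animals 1 to 4. That of animal 2 was taken against blood values that were not well above background, and the bound there is a log2 ratio of at least 3.21. The mean log2 ratio was 4.66 ± 0.52 (SE, n = 4), with a 95% interval from 3.43 to 5.89 and an adjusted p of 0.0109 in limma. Without animal 2 it was 4.57 (limma's adjusted p = 0.0404), and with that animal at its bound the mean was at least 4.23. Its absolute log2 ratio ranked 96 among the 16653 probes tested. The probe was well above background in 6 of the 8 blood channels, all but those of animal 2, and in all 8 endometrial channels.

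With a dye term and the animal as a random block over the 8 arrays, the log2 ratio of HPGD was 4.70 (limma's adjusted p = 0.0352). The call was lost under the normexp background correction (log2 ratio 2.61 with quantile scaling, limma's adjusted p = 0.262), with the tissues compared without the pairing by animal (limma's adjusted p = 0.416), under the methods' analysis of variance (adjusted p = 0.268), and without animal 1 (limma's adjusted p = 0.0576) or animal 4 (limma's adjusted p = 0.0574). In each of these the log2 ratio stayed positive.

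**Figure D2:**
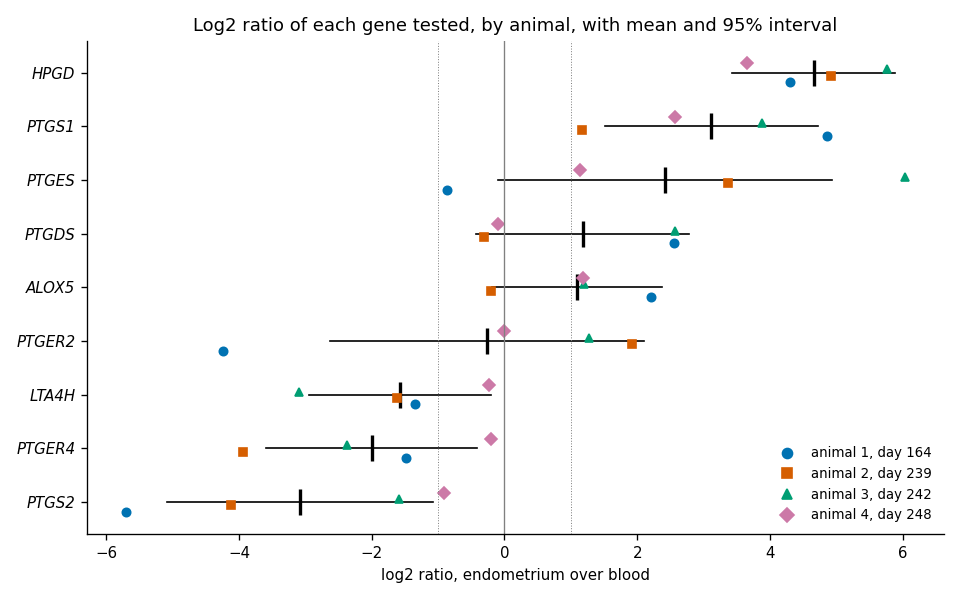
Log2 ratio of endometrium over blood (x axis) of the 9 genes tested (y axis), for each animal (points), with the mean of the 4 animals (bar) and its 95% interval from limma (line). Dotted lines mark a fold change of 2. HPGD has ratios between 3.65 and 5.76, of which that of animal 2 rests on blood values not well above background, and the interval of PTGER2 reaches from -2.64 to 2.11.

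The leukotriene genes gave no call. ALOX5, the 5-lipoxygenase, lay low on the scale in blood, at 5.85, 5.99, 5.52 and 5.45 in animals 1 to 4. In endometrium it was at 8.05, 5.78, 6.72 and 6.63. Animals 1, 3 and 4 had log2 ratios of 2.20, 1.2 and 1.18, and animal 2 had -0.21. The mean was 1.09 ± 0.54 (SE, n = 4; limma's adjusted p = 0.367).

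The probe of ALOX5AP, the membrane protein that presents arachidonic acid to 5-lipoxygenase, was well above background in none of the 8 blood channels and in 1 of the 8 endometrial channels, the second array of animal 1. Its levels were between 2.39 and 4.10 in blood and between 2.39 and 3.30 in endometrium. It was not tested, and no fold is given.

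LTA4H, the hydrolase that makes leukotriene B4, had blood levels of 11.23, 12.61, 11.51 and 11.80 in animals 1 to 4. Its endometrial levels were 9.88, 10.99, 8.41 and 11.57. Blood was higher in each animal, by least in animal 4 and by most in animal 3. The log2 ratios were -1.35, -1.62, -3.09 and -0.23, and the mean of -1.57 ± 0.58 (SE, n = 4) did not pass the test (limma's adjusted p = 0.264). The 3 genes of this branch therefore had a higher, an unmeasured and a lower mean in endometrium.

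For genes that varied widely between animals, the 2 arrays of an animal differed little beside the animals themselves. This did not hold where the animals lay close together. ALOX5AP in endometrium had an SD of 0.40 between animals, and its arrays differed by up to 0.54. For ALOX5 in blood these values were 0.26 and 0.20. Over the 10 genes, the values of a tissue on the 2 arrays of an animal differed by at most 0.62 (PTGS2), whereas the SD of the animals within a tissue was between 0.26 (ALOX5 in blood) and 4.39 (PTGES in endometrium). With the arrays of the first technical replicate alone the log2 ratio of HPGD was 4.85, and with those of the second it was 4.47. For PTGS1 these values were 2.94 and 3.30, and for PTGS2 -3.12 and -3.05.

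Of 53 other genes of the pathway, listed by role, 43 had a probe on the array, with 49 probes of which 38 were tested. Of these 38, 3 were called higher in endometrium (1.23% of all probes tested) and 0 were called higher in blood (0.12%). By limma's unadjusted p with a fold change over 2, the counts were 7 and 5, beside 7.98% and 8.05% of all probes tested. The median log2 ratio of the 38 was 0.31.

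The 3 called probes belonged to 3 different steps. PLA2G2D1, a secreted phospholipase A2, had log2 ratios of 4.48, 1.77, 6.14 and 4.76 in animals 1 to 4 (mean 4.29 ± 0.74, SE, n = 4; limma's adjusted p = 0.0489). AKR1B1, an aldose reductase that acts as a prostaglandin F synthase in bovine endometrium, had ratios of 3.08, 2.98, 3.67 and 2.00 (mean 2.93 ± 0.49, SE, n = 4; limma's adjusted p = 0.0439). SLCO2A1, the prostaglandin transporter, had 2 probes. One of them was well above background in 8 endometrial channels and in 1 blood channel, of animal 3, so that in 3 animals the ratio has only a lower bound. Its measured ratios had a mean of 3.01 (limma's adjusted p = 0.0369), the bounds were 1.13, 1.06 and 3.39 in animals 1, 2 and 4, the ratio of animal 3 was 3.39, and the mean with these bounds was at least 2.24. The other had a mean of 0.43 ± 0.53 (SE, n = 4; limma's adjusted p = 0.739) and carried that flag in all 16, so that the 2 probes of SLCO2A1 disagreed and its call rests on a blood level that was mostly not measured. None of the 3 was called under the normexp correction, and none without animal 1 or without animal 4.

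Prostanoid receptors outside the members had no call among 4 probes tested, with a median log2 ratio of -1.20. PTGDR, a prostaglandin D2 receptor, had a mean of -2.44 ± 0.72 (SE, n = 4; limma's adjusted p = 0.205). TBXA2R, the thromboxane receptor, had -2.08 ± 0.75 (SE, n = 4; limma's adjusted p = 0.255). The leukotriene C4 branch had no call among 4 probes, and its probes with the largest ratios were DPEP2, a dipeptidase acting on leukotriene D4 (-1.22, limma's adjusted p = 0.301), and ABCC1, an exporter of leukotriene C4 (-0.98, limma's adjusted p = 0.539). The leukotriene receptor list, which also held the oxoeicosanoid receptor OXER1, had none among 3 probes. Log2 ratios were -0.48 for CYSLTR2 and -0.18 for OXER1. Other lipoxygenases and epoxide hydrolases had none among 5. In that group EPHX2, the soluble epoxide hydrolase, had ratios of 2.35, 4.71, 4.14 and 2.28 in animals 1 to 4 (mean 3.37 ± 0.59, SE, n = 4) and lay just beyond the threshold (limma's adjusted p = 0.0526). ALOX12, the 12-lipoxygenase, was well above background in no blood channel and in all 8 endometrial channels, and was at least 3.35-fold higher in endometrium (limma's adjusted p = 0.166), where the bound takes for each blood channel the lowest signal that was well above background.

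**Figure D3:**
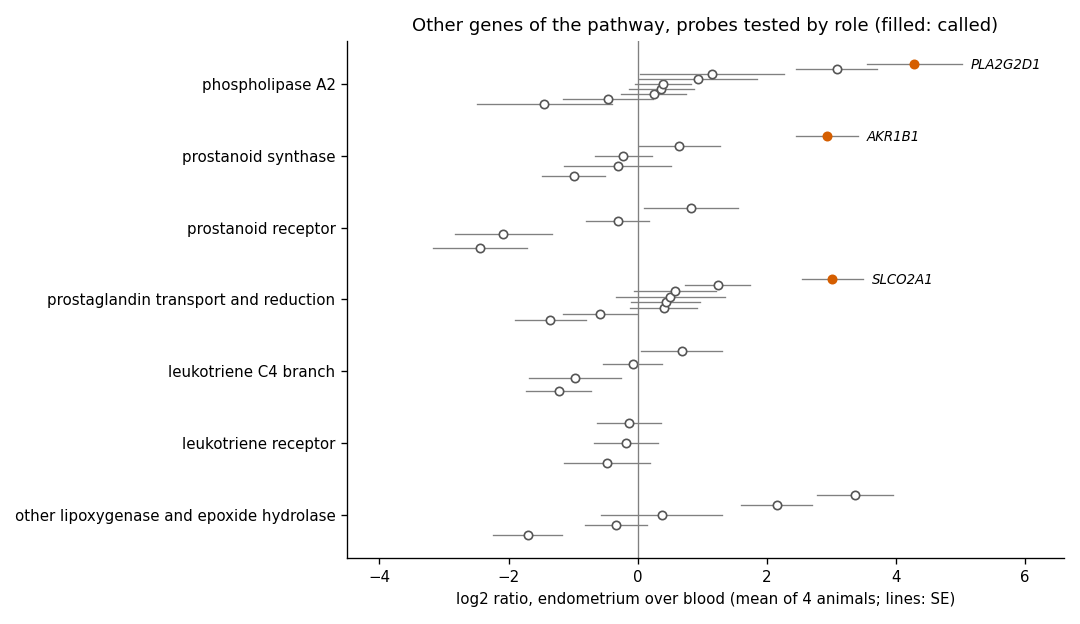
Log2 ratio of endometrium over blood (x axis, mean of 4 animals with its SE) of the 38 tested probes of other pathway genes, grouped by role (y axis). Filled points were called. They are PLA2G2D1 at 4.29, SLCO2A1 at 3.01 and AKR1B1 at 2.93.

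Of the 224 probes called, 204 were higher in endometrium, so a shared direction among called probes was largely given by the calls. Called markers of epithelium, trophoblast and stroma had this direction, and so did HPGD, PLA2G2D1, AKR1B1 and 1 SLCO2A1 probe. Of 13 epithelial probes tested, 7 were called higher in endometrium, with a median log2 ratio of 3.47 and SERPINA14, a uterine milk protein of the glands, at 6.53. Of 11 trophoblast probes, 7 were called, with a median of 4.88 and PRP6, a prolactin-related protein, at 5.74, while GATA3 was at -1.28 and TFAP2A at -0.48. Of 13 stromal probes, 2 were called, with a median of 2.68 and 1 probe of DCN, decorin, at 5.26, while VIM, vimentin, was at -0.72. The other DCN probe had a mean of 2.83 and was not called (limma's adjusted p = 0.322). Its log2 ratios were 6.44, -0.57, 5.31 and 0.14 in animals 1 to 4. The intensities of a list were also summed over its probes before taking the log2. This value ranged over the 4 animals from 11.01 to 13.22 in blood and from 15.30 to 18.56 in endometrium for the epithelial list. For the trophoblast list it ranged from 11.68 to 12.77 in blood and from 15.71 to 17.37 in endometrium. The stromal sums were 13.07 to 16.75 and 12.78 to 18.58. Every epithelial probe was well above background in some channel of each tissue, while 3 trophoblast probes and 1 stromal probe were so in no channel of either tissue.

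By animal, the median log2 ratio was 3.20, 3.23, 5.11 and 1.94 for the epithelial list, 4.34, 4.79, 5.17 and 5.01 for the trophoblast list, and 5.96, -0.14, 3.66 and 2.68 for the stromal list, in animals 1 to 4. With 4 animals no correlation is given. The part of epithelial, trophoblast or stromal RNA in the ratios of HPGD, PTGS1, PLA2G2D1, AKR1B1 and SLCO2A1 was not tested.

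**Figure D4:**
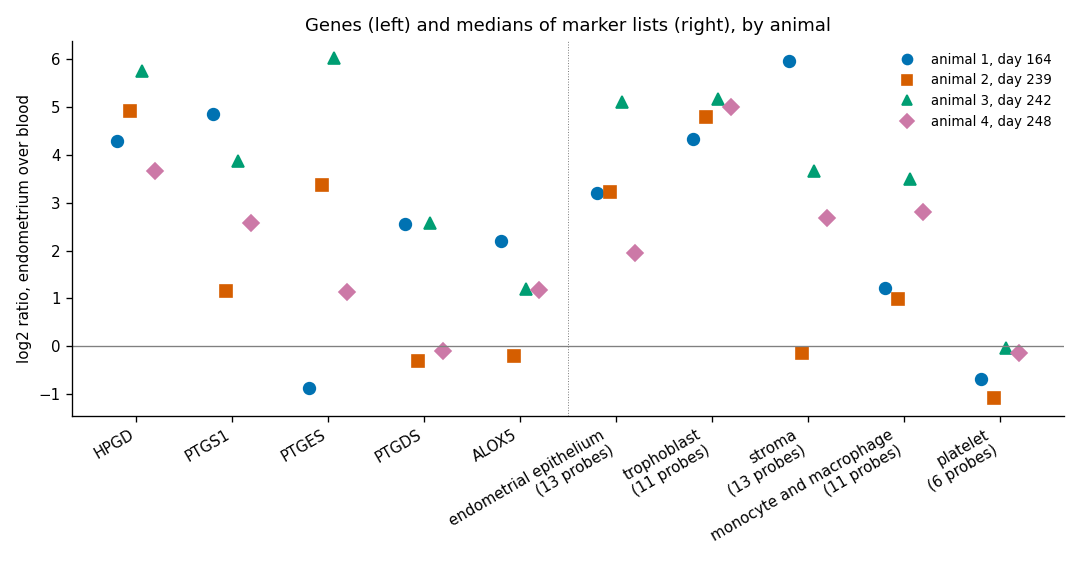
Log2 ratio of endometrium over blood (y axis) by animal for the 5 members with a mean above 0 (left) and, on the right, the median over the tested probes of 5 marker lists. Trophoblast medians lie between 4.34 and 5.17 in every animal, and the stromal median of animal 2 lies at -0.14.

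Between the tissues, CD14 had a probe well above background in all 16 channels, and its log2 ratio of -0.17 ± 0.60 (SE, n = 4) did not pass the test (limma's adjusted p = 0.919). CD68, a lysosomal protein of macrophages, had a log2 ratio of 1.61 ± 0.61 (SE, n = 4; limma's adjusted p = 0.276). Of 11 monocyte and macrophage probes, 1 was called higher in endometrium, the median was 2.30, and FCGR1A, a high-affinity IgG receptor, had the largest ratio at 4.81 without a call. Platelets also carry PTGS1: none of 6 platelet probes was called, with a median of -0.41 and TUBB1 at -3.37. Neutrophils carry ALOX5, ALOX5AP and LTA4H: of 7 neutrophil probes, 1 was called higher in blood, with a median of -0.69. It was the probe taken for CXCR1, at -3.86, which the array names IL8RB. Of 6 B cell probes, 1 was called higher in blood, with a median of -2.97 and the largest ratio in CD79B at -4.64. No probe was called among 14 of T and natural killer cells (median 0.27, CD2 at 2.05), 10 of endothelium (median 0.81, VWF at 2.64) and 4 of mast cells (median -0.11, KIT at 1.33).

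The size of a ratio differed with the treatment of the intensities, whose steps were not separated, while over the 4 treatments of the intensities compared here each of the 9 members kept its direction. With the scanner's processed signal the log2 ratios of the 9 members were close to those of the value table, at 4.84 for HPGD, 3.15 for PTGS1 and -2.96 for PTGS2. With the normexp correction, loess and quantile scaling they were 2.61, 2.23 and -2.74. ALOX5 went from 1.09 to 0.37 and PTGES from 2.42 to 1.04, whereas PTGER4 went from -2.0 to -1.97 and LTA4H from -1.57 to -1.36. Under that correction 11 of the 16653 probes were called (0.0661%), and none of the members was.

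**Figure D5:**
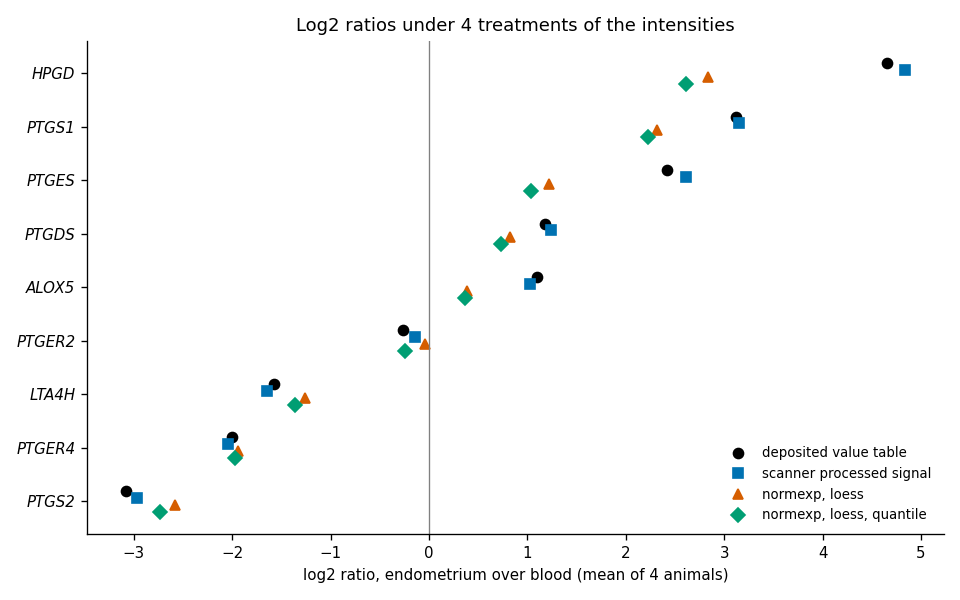
Mean log2 ratio of endometrium over blood (x axis) of the 9 genes tested (y axis) under 4 treatments of the intensities (symbols). HPGD moves from 4.66 in the deposited value table to 2.61 with normexp, loess and quantile, PTGER4 moves from -2.0 to -1.97, and each gene keeps its side of 0.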

How the data were processed

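RNA of blood and endometrial CD14+ cells of 4 cows was hybridised on 8 two-colour Agilent arrays. The deposited value table holds log2 values that the authors obtained by lowess and quantile normalisation; the deposited scanner files hold spot intensities and background flags (coded as scores), extracted with Agilent Feature Extraction (version 9.5 per the submitters' processing notes, 10.5.1.1 per the file headers). The 2 spots of a probe were averaged. Flags were taken from the scanner channel whose processed signal matched each column (100% of probes within 0.001 on the log2 scale, 16 of 16 columns). Where probe names were not symbols, they were matched through accessions or descriptions, and 2 matches whose description named another gene were left out. The bovine build behind the array was not given in the sources used here.

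Log2 ratios within animals, averaged over the 2 arrays, were tested against 0 with limma 3.58.1 (lmFit, eBayes) in R 4.3.3 over 16653 probes, with Benjamini-Hochberg adjustment and 7.01 degrees of freedom. The animal pairs the tissues, since both came from the same cow. Deviations of the 2 tissues from their means correlated at 0.628, 0.372, 0.239 and 0.452 in animals 1 to 4. An exact permutation test over 4 animals cannot go below p = 0.125, so none is given. Normexp used an offset of 50. The number of animals limits the precision. The test was tried on simulated data, where it missed most of the changes put in.

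Every member was reported. Of other pathway genes, those called were named, and otherwise the 2 probes with the largest absolute ratio in a role; of each marker list, the largest, with CD14 and CD68. Members and lists were chosen with earlier results of these data known. Alternatives were background correction, normalisation, filters, pairing, dye, slide, test and each animal left out. Flow cytometry and quantitative PCR were not analysed here.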

Additional observations from a re-analysis of the deposited data

Results flagged for a closer look

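The log2 level of PTGS2 in the blood CD14+ cells of animal 1 was 17.49, against 11.61 to 12.12 in the other 3 animals, a gap to the nearest animal that was large beside the whole range of the group. It was the 1 such value among 30 groups of 4 checked (blood level, endometrial level and log2 ratio of each member), and chance gives about 1 in 20 groups. Both arrays of animal 1 showed it, at 17.50 and 17.47.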

How the results depend on the processing

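Against 224 probes called, 11 were called with normexp, loess and quantile, 5 with normexp and loess, 123 with no filter on dim probes (of all probes), 38 without the replicate block (the pairing by animal) and 0 under the methods' analysis of variance. By unadjusted p with a fold change over 2, 2670 probes (16%) passed in limma and 1229 in the methods' analysis of variance (2 members and 8 other pathway probes). Leaving out 1 animal gave 0 to 180 calls. Of the members, 1 was called, against 0 under both normexp settings, without the pairing and under the methods' analysis of variance, 5 by unadjusted p, and 0 to 1 with an animal left out. Of other pathway probes, 3 were called, against 0 under both normexp settings, with no filter, without the pairing and under the methods' analysis of variance, 1 with the processed signal, 1 with the first technical replicate alone, 12 by unadjusted p, and 0 to 1 with an animal left out (0 without animal 1 or 4). With animal 1 alone, an alternative also added after seeing the data and with no test, PTGES was at -0.87. The log2 ratio of PTGER2 lay between -0.99 and 1.06 with an animal left out, and it turned positive without animal 1. With the scanner files as listed for the samples, an alternative chosen after seeing the data, 0 probes, 0 members and 0 other pathway probes were called, and the log2 ratios turned to -1.05 for PTGS1, 2.02 for PTGS2, -0.043 for PTGDS, 0.81 for PTGER2, 0.82 for PTGER4, -0.10 for HPGD, -0.15 for ALOX5 and 0.084 for LTA4H, since 3 animals then carry exchanged tissues. Apart from these, every ratio of the 9 tested members kept its direction. The cause of the other differences was not tested. Levels near background limit HPGD and PTGES in blood and ALOX5AP in both tissues.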
